A study of Mus musculus with 1 sample.

Results

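A set of 9 epithelial and mesothelial genes was followed in 3816 single cells of the control fetal mouse testis: the uroplakins *Upk3b* and *Upk1b*, the keratins *Krt7*, *Krt8*, *Krt18* and *Krt19*, and the genes of the cell-surface proteins mesothelin (*Msln*), mucin 16 (*Muc16*) and podocalyxin (*Podxl*). They are 9 of the 22631 features of the deposited matrix and were found by their symbols. The sample was 1 library of dissociated testes pooled from 12 controls, so there was no replicate and no test was made. The labels give embryonic day (E) 14.5 and the genotype WT, whereas the methods name E13.5 and E14.5 and describe controls as *Nr5a1* L2/L2 fetuses, which carry conditional alleles of *Nr5a1* but no Cre transgene. The library of mutant testes was not analysed here.

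The fetal testis is covered by the coelomic epithelium, a mesothelial layer that faces the body cavity and that, earlier in development, supplies progenitors of the supporting cells. Sertoli cells are the epithelial supporting cells that enclose the germ cells within the cords. Keratins build filaments from pairs of a type II chain (here *Krt7* and *Krt8*) and a type I chain (here *Krt18* and *Krt19*), and *Krt8* with *Krt18* is the pair typical of simple epithelia. Uroplakins are membrane proteins best known from the bladder lining and are also used as marks of mesothelium, as are mesothelin and mucin 16. Podocalyxin is a sialomucin of the apical cell surface that is also made by endothelial cells.

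All 9 genes are protein-coding, and their identifiers in the matrix match the GENCODE vM21 annotation of GRCm38 (mm10). *Upk3b* (ENSMUSG00000042985) lies at chr5:136038496-136046487 on the plus strand and *Upk1b* (ENSMUSG00000049436) at chr16:38773184-38800328 on the minus strand. The type II keratin genes *Krt7* (ENSMUSG00000023039, chr15:101411043-101430313, plus strand) and *Krt8* (ENSMUSG00000049382, chr15:101996698-102004482, minus strand) share a chromosome with the type I gene *Krt18* (ENSMUSG00000023043, chr15:102028180-102032027, plus strand), which is 23.7 kb from *Krt8*. The other type I gene, *Krt19* (ENSMUSG00000020911), is at chr11:100140810-100148665 on the minus strand. *Msln* (ENSMUSG00000063011) is at chr17:25748613-25754378, *Muc16* (ENSMUSG00000109564) at chr9:18495455-18674530 and *Podxl* (ENSMUSG00000025608) at chr6:31519488-31563981, all on the minus strand. Genes of the other strand overlap *Krt7* (Gm671, an antisense RNA), *Krt8* (Gm36026, a lincRNA) and *Muc16* (Gm25295, a small RNA). Whether the counting used strand is not given in the sources used here.

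Of the 9 genes, 5 had a promoter entry in the RefSeq table of GRCm38.p6, which spans 250 bases before to 50 bases after the annotated start. The 4 shown here belong to a pair of genes high in the coelomic epithelium-like cells (*Upk3b* and *Krt7*) and to the keratin pair that these cells share with Sertoli-like cells (*Krt8* and *Krt18*). Their windows are chr5:136038246-136038545 (plus), chr15:101412153-101412452 (plus), chr15:102004293-102004592 (minus) and chr15:102027966-102028265 (plus), respectively. Each is written 5′ to 3′ on the strand of its gene, and capitals mark the letters searched for.
Upk3b: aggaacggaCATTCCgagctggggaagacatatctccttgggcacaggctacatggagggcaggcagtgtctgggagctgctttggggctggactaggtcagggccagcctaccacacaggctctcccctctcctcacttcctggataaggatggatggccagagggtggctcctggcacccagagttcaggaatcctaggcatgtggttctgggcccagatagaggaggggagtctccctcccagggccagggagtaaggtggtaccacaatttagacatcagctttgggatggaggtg
Krt7: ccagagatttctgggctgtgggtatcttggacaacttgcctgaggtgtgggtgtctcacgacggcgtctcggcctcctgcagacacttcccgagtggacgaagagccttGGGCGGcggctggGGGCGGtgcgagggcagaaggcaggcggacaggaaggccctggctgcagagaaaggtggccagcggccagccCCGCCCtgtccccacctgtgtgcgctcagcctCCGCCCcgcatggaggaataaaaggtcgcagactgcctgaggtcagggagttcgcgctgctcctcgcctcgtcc
Krt8: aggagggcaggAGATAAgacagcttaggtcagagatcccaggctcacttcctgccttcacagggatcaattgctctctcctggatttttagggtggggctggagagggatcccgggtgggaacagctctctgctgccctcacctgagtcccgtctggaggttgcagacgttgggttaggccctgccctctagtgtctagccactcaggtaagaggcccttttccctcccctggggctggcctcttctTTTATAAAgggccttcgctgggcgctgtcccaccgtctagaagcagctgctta
Krt18: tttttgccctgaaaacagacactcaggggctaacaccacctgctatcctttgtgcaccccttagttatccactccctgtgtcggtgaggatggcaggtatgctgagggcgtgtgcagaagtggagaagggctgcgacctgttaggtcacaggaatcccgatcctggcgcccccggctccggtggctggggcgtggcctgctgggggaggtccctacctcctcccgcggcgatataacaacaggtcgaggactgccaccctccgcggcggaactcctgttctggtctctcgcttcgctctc

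A set of 4 short motifs was searched on both strands. CATTCC (the core bound by TEAD factors) was found once in the *Upk3b* window, and 14.7% of the 32851 promoters in the table hold it. GGGCGG (the GC box) was found 4 times in the *Krt7* window and in 35.7% of all promoters. That window lies wholly inside the GENCODE span of *Krt7* given above, so these matches are not upstream of the gene as placed there. The *Krt8* window held AGATAA (bound by GATA factors), present in 11.2% of promoters, and TATAAA (the TATA box), present in 13.6%, the latter on both strands in overlapping letters. The TATAAA letters lie across the annotated start of that window and inside the GENCODE span of *Krt8*. They are thus not upstream of the gene as placed there. None of these letters was found in the windows of *Krt18* and *Muc16*. A match is a description of the sequence and not a binding site.

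The matrix held 5421 barcodes, against about 6000 captured cells aimed at per the labels, and 5049 of them had 200 genes or more. After removal of 204 doublets and 1029 outlier barcodes the kept cells had a median of 12036 unique molecular index (UMI) counts. They fell into 14 clusters, named from markers that include none of the 9 genes. The 9 genes and related genes were also kept out of the genes used for clustering. Cluster names end in "-like", and levels in them remain a description of 1 library. Levels are given in CPM: the UMIs of a gene were added up within a class and scaled to 1000000 UMIs, and the range in brackets is the exact 95% interval of a Poisson count. For shares of cells the range is the exact binomial 95% interval. Both kinds of interval cover counting error only.

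The coelomic epithelium-like class was 1 cluster of 159 cells (4.17%, 3.55 to 4.85% of kept cells; median 16330 UMIs), in which 7 of 7 coelomic markers were seen in at least 25% of the cells. Of these markers *Rspo1* reached 171 CPM against 2.95 CPM in Sertoli-like cells, *Lrrn4* 102 against 0 and *Lhx9* 428 against 2.80, although *Lhx9* was also at 243 CPM in interstitial-like cells. The marker *Nkain4* was higher in interstitial-like cells, at 75.5 CPM, than in the coelomic class, at 48.8 CPM. The 850 Sertoli-like cells (22.3%, median 14358 UMIs) had 11 of 11 Sertoli markers, with *Amh* at 1981 CPM against 3.68 CPM in the coelomic class. The 11 Sertoli markers together made up 65.2 CPM of the coelomic class and 10514 CPM of Sertoli-like cells.

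Both uroplakin genes were high in the coelomic epithelium-like cells and near 0 elsewhere. *Upk3b* was at 323 CPM (302 to 344) there, and 93.7% of the cells (88.7 to 96.9%) held at least 1 UMI of it. In Sertoli-like cells it was at 0.233 CPM (0.0481 to 0.681), from 3 UMIs in 850 cells. The ratio was 1384, with a counting interval of 472 to 6722. The coelomic class held 95.6% of all *Upk3b* UMIs of the kept cells. The next levels were 3.32 CPM (1.66 to 5.94) in the unnamed cluster led by *Ntng1* and 2.78 CPM (1.67 to 4.34) in peritubular myoid-like cells, whose intervals overlap. The first came from 11 UMIs in 5 of 369 cells and the second from 19 UMIs in 12 of 518 cells.

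*Upk1b*, which codes for a tetraspanin that pairs with another uroplakin in the membrane, reached 110.1 CPM (98.5 to 123) and was seen in 72.3% of coelomic epithelium-like cells (64.7 to 79.1%). A single UMI was counted over all Sertoli-like cells (0.0777 CPM), for a ratio of 1417 (253 to 56125). The unnamed *Ntng1* cluster was again the next highest, at 1.51 CPM (0.490 to 3.52), from 5 UMIs in 4 cells. The other 4 uroplakin genes listed, *Upk1a*, *Upk2*, *Upk3a* and *Upk3bl*, had no UMI in the coelomic class, where the exact interval of each ends at 1.23 CPM. None of the 4 reached 20 CPM in any class, and the highest level among them was 3.45 CPM of *Upk2* in germ-like cells.

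**Figure D1:**
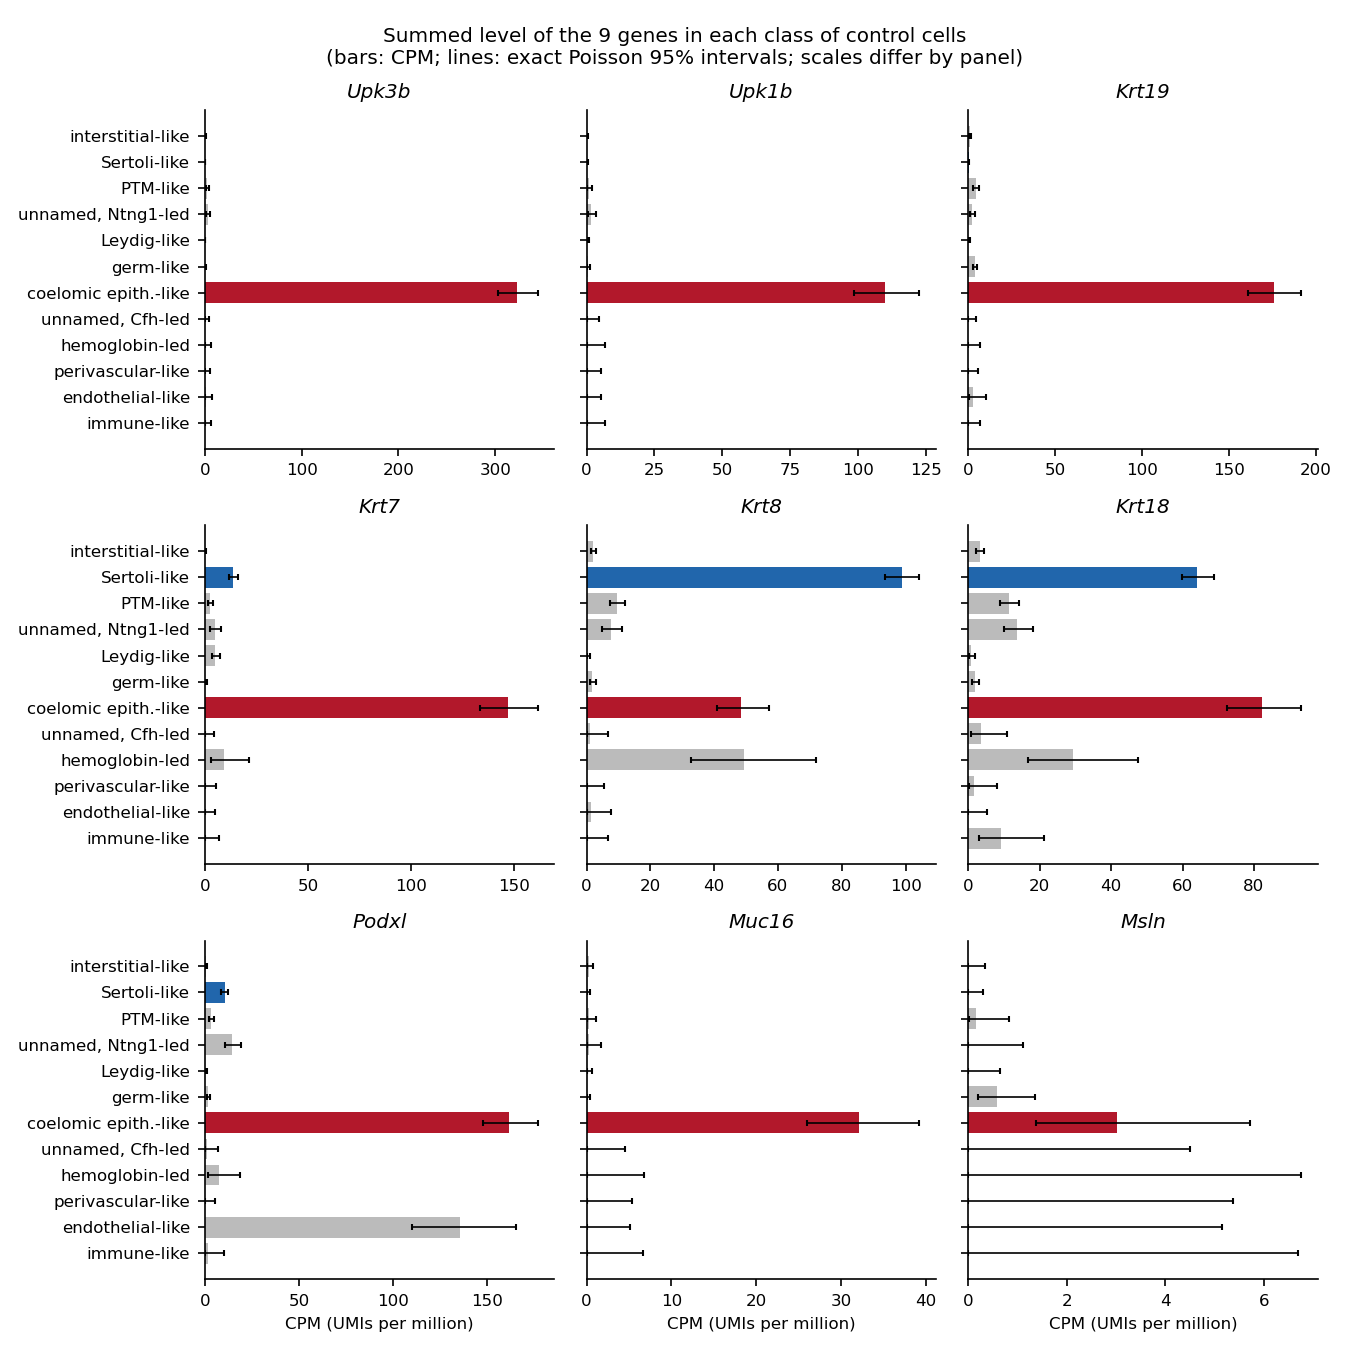
Level of each of the 9 genes (horizontal axis, CPM, from 0, with its own scale in each panel) in the 12 cell classes (vertical axis, by number of cells), with exact Poisson 95% intervals as lines. The coelomic epithelium-like class (red) is the highest bar for 8 genes, from 3.01 CPM of *Msln* to 323 CPM of *Upk3b*, and Sertoli-like cells (blue) are the highest for *Krt8* at 98.8 CPM.

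The 4 keratins fell into different patterns. *Krt19* followed the uroplakins: it was at 176 CPM (161 to 192) in the coelomic class, seen in 61.6% of its cells (53.6 to 69.2%), and gave 1 UMI in all Sertoli-like cells, a ratio of 2265 (405 to 89631). Outside the coelomic class, *Krt19* was at 4.24 CPM (2.84 to 6.09) in peritubular myoid-like cells, where 15 of the 29 UMIs came from 1 cell. In germ-like cells it was at 3.68 CPM (2.52 to 5.20), spread over 29 of 251 cells with at most 2 UMIs each. Germ-like cells were the deepest class, with a median of 35917 UMIs, and after thinning every cell to 5000 UMIs the share of germ-like cells with *Krt19* was 2.04% instead of 11.6%.

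*Krt7* was shared at unequal levels. It was at 147 CPM (133 to 161) in the coelomic class, in 70.4% of the cells (62.7 to 77.4%), and at 13.8 CPM (11.9 to 16.0) in Sertoli-like cells, in 15.4% of the cells (13.0 to 18.02%). The ratio of the classes was 10.6 (8.90 to 12.7). Interstitial-like cells, which are shallower at a median of 9672 UMIs, gave 2 *Krt7* UMIs in 1055 cells. *Krt7* was seen in 2.32% of peritubular myoid-like and 5.99% of Leydig-like cells. Whether the Sertoli-like counts exceed those of cells that lack the gene was not tested. With all cells thinned to 5000 UMIs the shares were 44.7% of coelomic, 7.16% of Sertoli-like and 0% of interstitial-like cells. The 2 Leydig-like clusters differed: the cluster led by *Clps* and *Cyp11a1* had *Krt7* at 9.10 CPM (6.10 to 13.1) and the one led by *Nppc* at 0.388 CPM (0.00983 to 2.16), from 29 UMIs and 1 UMI. Their intervals do not overlap, and the first cluster was also the deeper, at a median of 21428 against 13647 UMIs.

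*Krt8* was the 1 gene of the 9 that was higher in Sertoli-like cells, at 98.8 CPM (93.4 to 104) against 48.5 CPM (40.9 to 57.1) in the coelomic class. It was seen in 63.8% (60.4 to 67.0%) and 42.1% (34.4 to 50.2%) of the cells, although the coelomic cells were deeper. The coelomic level was 2.04-fold lower (1.71 to 2.43), and with 5 CPM added to both levels the log2 ratio was −0.96, just short of the 2-fold limit used for a call. Its partner *Krt18* was on the other side of equality, at 82.3 CPM (72.3 to 93.3) in the coelomic class and 64.2 CPM (59.9 to 68.7) in Sertoli-like cells. That ratio was 1.28 (1.11 to 1.480), with 66.0% (58.1 to 73.4%) and 53.9% (50.5 to 57.3%) of cells positive. In interstitial-like cells *Krt8* was at 2.04 CPM and *Krt18* at 3.15 CPM, and both were under 1 CPM in Leydig-like cells, which had a median of 15923 UMIs.

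Intermediate levels of the *Krt8* and *Krt18* pair were found in peritubular myoid-like cells (9.50 and 11.3 CPM) and in the unnamed *Ntng1* cluster (7.54 and 13.6 CPM). A finer clustering described later splits both into parts with unlike levels. A cluster led by hemoglobin genes (78 cells, median 3707 UMIs) had *Krt8* at 49.5 CPM (32.6 to 72.0), *Krt18* at 29.3 CPM (16.8 to 47.6) and *Krt7* at 9.16 CPM (2.97 to 21.4). Its name goes against its content: 8 of 11 Sertoli markers were seen in at least 25% of these cells, none of the 11 was at 0, and in 58 of the 78 cells the Sertoli markers had more UMIs than the 6 erythroid markers. In these 58 cells *Krt8* was at 112 CPM (72.5 to 165), whereas in the other 20 it was at 6.20 CPM (0.750 to 22.4), from 2 UMIs. The 58 cells are shallow, with a median of 3063 UMIs.

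**Figure D2:**
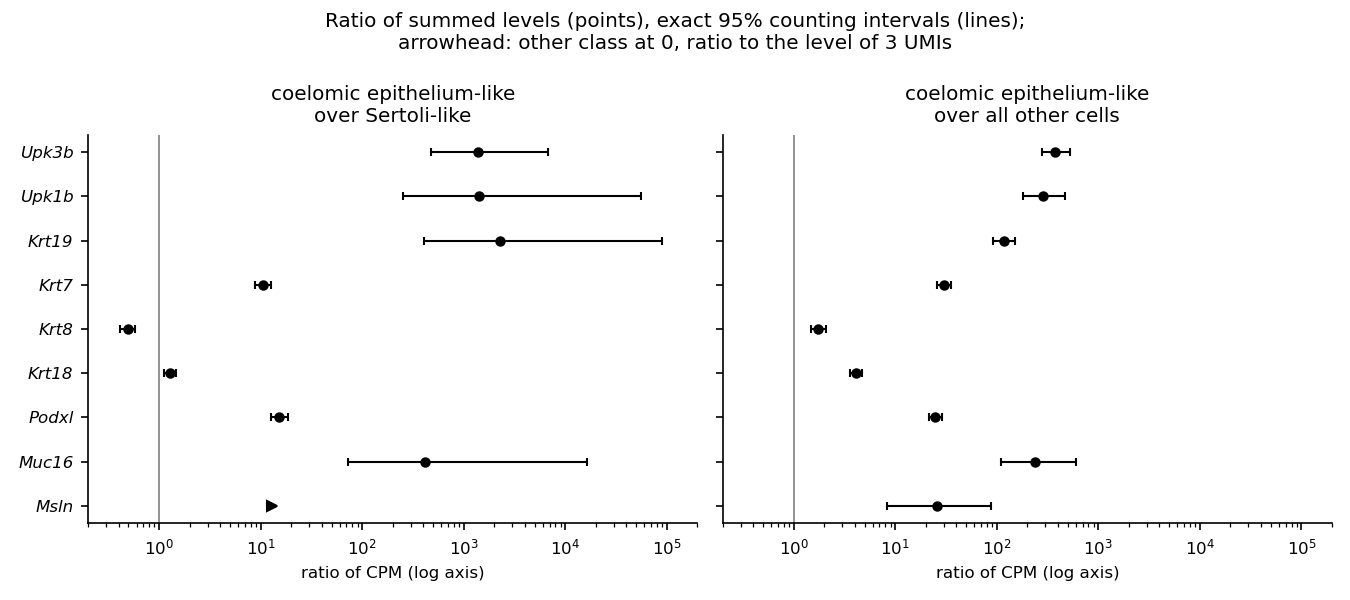
Ratio of CPM (horizontal log axis) of the 9 genes (vertical axis) for coelomic epithelium-like cells over Sertoli-like cells (left) and over all other kept cells (right), with exact 95% counting intervals as lines and the grey line at equal levels. The left panel separates *Upk3b*, *Upk1b*, *Krt19* and *Muc16*, with ratios from 413 to 2265, from *Krt7* and *Podxl* at 10.6 and 15.3, with *Krt18* and *Krt8* at 1.28 and 0.491, and the arrowhead of *Msln* stands at 12.9, its level over that of 3 UMIs in Sertoli-like cells, which had none.

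Of the 3 genes for surface glycoproteins, *Podxl* was high in a pair of classes. It was at 162 CPM (148 to 177) in the coelomic class and 135 CPM (110 to 165) in endothelial-like cells, in 86.2% (79.8 to 91.1%) and 76.2% (60.6 to 87.9%) of the cells. The endothelial-like level was 0.838 times the coelomic one, with an interval of 0.667 to 1.04 that includes equal levels. In the 42 endothelial-like cells the other 8 genes gave at most 2 UMIs each. Sertoli-like cells had *Podxl* at 10.6 CPM (8.87 to 12.5), a 15.3-fold difference (12.6 to 18.6), and it was seen in 74 of 850 cells with up to 8 UMIs in 1 cell. Interstitial-like cells had 0.742 CPM (0.320 to 1.46).

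*Muc16* was at 32.1 CPM (26.0 to 39.2) in the coelomic class, in 36.5% of the cells (29.0 to 44.5%), and gave 1 UMI in Sertoli-like cells, for a ratio of 413 (72.4 to 16496). Of its 103 UMIs in kept cells, 93.2% lay in the coelomic class. *Msln* was barely captured. Its 15 UMIs came from 15 cells, 9 of them coelomic (3.01 CPM, 1.38 to 5.72; 5.66% of the cells), 5 germ-like and 1 peritubular myoid-like. No *Msln* UMI was found in 850 Sertoli-like cells. The exact interval for cells with a UMI ends at 0.433%, which is no limit on cells expressing it. The coelomic level was 12.9 times the level that 3 UMIs would give in the Sertoli-like class. This is no lower limit, as the exact counting interval of the ratio starts at 8.4995.

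With 5 CPM added to both levels, 6 of the 9 genes were at least 2-fold higher in coelomic epithelium-like than in Sertoli-like cells, where 8.37% of the 15102 genes seen in 10 or more cells were. None of the 9 was at least 2-fold lower, against 8.32% of those genes. *Krt8*, *Krt18* and *Msln* passed in neither direction. The median log2 ratio was 3.01 over the 9 genes and −0.01 over all 15102. Against all other cells together, 7 of the 9 passed (3.16% of all genes) and none was lower (5.38%), with *Krt18* now passing at a ratio of 4.13 (3.58 to 4.76), and the median log2 ratio was 3.86 beside −0.08. Against interstitial-like cells 8 passed (3.89% of all genes), all but *Msln*, and none was lower (3.3%). The Sertoli-like cells exceeded interstitial-like cells at 4 of the 9 (8.69% of all genes) and were lower at none (7.9%): *Krt8* with a ratio of 48.4 (31.8 to 77.5), *Krt18* of 20.4 (14.5 to 29.6), *Krt7* of 74.6 (20.3 to 621) and *Podxl* of 14.2 (7.03 to 33.7). Against endothelial-like cells 7 of the 9 were higher in the coelomic class (10.9% of all genes), all but *Podxl* and *Msln*, and none was lower (7.01%).

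The makeup of the keratins differed between the coelomic and Sertoli-like classes. *Krt7*, *Krt8*, *Krt18* and *Krt19* together gave 1356 UMIs in the coelomic class and 2276 in Sertoli-like cells. Of the UMIs of *Krt7* and *Krt8* alone, *Krt8* made up 24.8% (21.4 to 28.5%) in the coelomic class and 87.7% (85.9 to 89.4%) in Sertoli-like cells. Of the UMIs of *Krt18* and *Krt19* alone, *Krt18* made up 31.9% (28.6 to 35.3%) and 99.9% (99.3 to 100.0%). Other keratins were left out, so these are not shares of all type II or type I chains. For example, *Krt10* gave 129 UMIs in the coelomic class and 242 in Sertoli-like cells. *Krt14* gave 193 and 1, and *Krt79* gave 1 and 213. The ratio of *Krt8* to *Krt18* UMIs was 0.589 (0.477 to 0.727) in the coelomic class and 1.54 (1.41 to 1.68) in Sertoli-like cells, and the intervals do not overlap. These ratios of UMIs set classes side by side for the same pair of genes and do not give the proportion of the proteins.

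**Figure D3:**
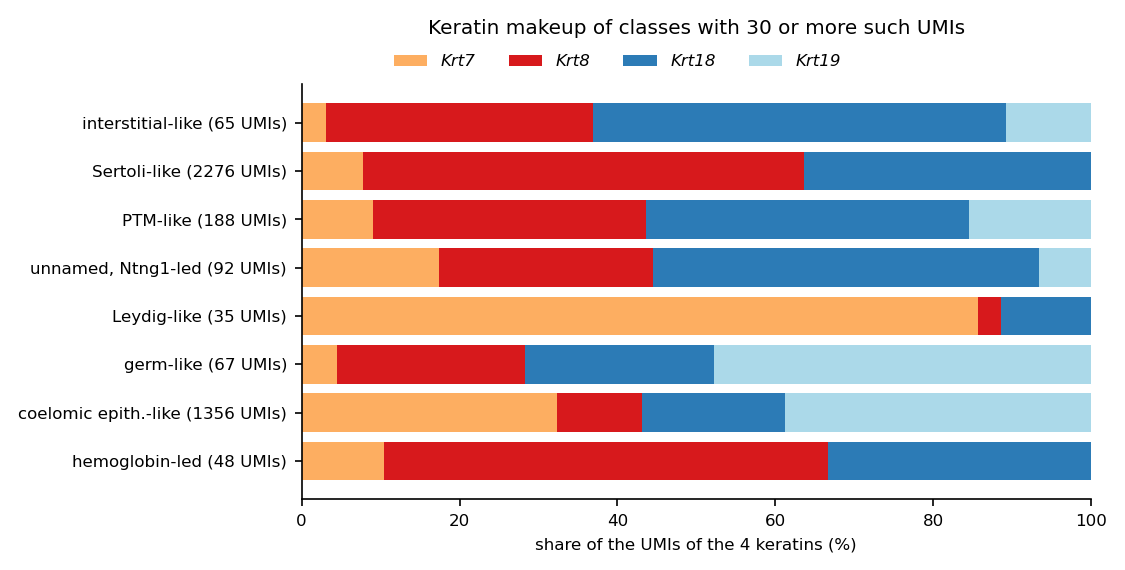
Share of the UMIs of 4 keratins (horizontal axis, %, from 0 to 100) that each keratin took in the classes with 30 or more such UMIs (vertical axis, number of UMIs in brackets). Sertoli-like cells hold mainly *Krt8* (55.8%) and *Krt18* (36.3%), whereas the coelomic class holds all 4, with *Krt19* (38.8%) and *Krt7* (32.4%) ahead.

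Within the coelomic class the genes varied from cell to cell. *Upk3b* had a median of 4 UMIs per cell (quartiles 2 and 8) and up to 41. *Podxl*, *Krt7*, *Krt19* and *Upk1b* each had a median of 2, with highest cells at 17, 15, 18 and 9 UMIs. *Krt18* had a median of 1 and a highest value of 7. *Krt8* and *Muc16* had a median of 0, with up to 6 and 8, and *Msln* never exceeded 1. The variance was 6.81 times the mean for *Upk3b*, 5.40 times for *Krt19* and 1.85 times for *Krt18*, in cells that also differ in depth.

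For pairs of genes, the presence of one was compared with that of the other after thinning to 5000 UMIs, which left 152 coelomic cells. *Krt19* was present in 50% (37.6 to 62.4%) of the cells with *Krt7* and 29.8% (20.3 to 40.7%) of those without. *Upk1b* was present in 44.8% (35.0 to 54.8%) of the cells with *Upk3b* and 34.0% (20.9 to 49.3%) of those without. *Krt18* was present in 38.7% (21.9 to 57.8%) of the cells with *Krt8* and 33.1% (24.8 to 42.2%) of those without. For *Krt18* the shares were 38.2% (26.7 to 50.8%) with *Krt7* and 31.0% (21.3 to 42.0%) without. For *Krt19* they were 38.7% (21.9 to 57.8%) with *Krt8* and 38.8% (30.1 to 48.1%) without. The intervals overlap in each of these pairs, which does not show that the genes are unlinked. Correlations of log levels, scaled by depth, were also taken over the 159 coelomic cells without thinning. They were 0.31 for *Krt7* with *Krt19*, 0.29 for *Upk3b* with *Upk1b* and 0.36 for *Krt8* with *Krt18*. Whether the genes of a pair go together was not tested. In 838 thinned Sertoli-like cells *Krt18* was present in 31.4% (26.1 to 37.1%) of the cells with *Krt8* and 25.3% (21.7 to 29.2%) of those without, again with overlapping intervals. *Krt19* was in none of the thinned Sertoli-like cells.

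The 6 genes that were 2-fold higher than in Sertoli-like cells (*Upk3b*, *Upk1b*, *Krt7*, *Krt19*, *Muc16* and *Podxl*) were then counted per cell. Of the 159 coelomic cells, 138 (86.8%) held at least 3 of the 6, 31 held all 6 and 1 held none. None of the 850 Sertoli-like cells held 3, although 191 held 1, and 10 held 2. These 6 were chosen by their levels in the same cells, so the contrast is a description. Outside the coelomic class 11 of 3657 cells (0.301%) held 3 or more: 6 peritubular myoid-like, 3 of the unnamed *Ntng1* cluster, 1 interstitial-like and 1 germ-like. Those 11 had a median doublet score of 0.289, beside 0.244 in the coelomic class and 0.178 in all kept cells, and a median of 18050 UMIs. Whether they are pairs of cells was not tested.

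**Figure D4:**
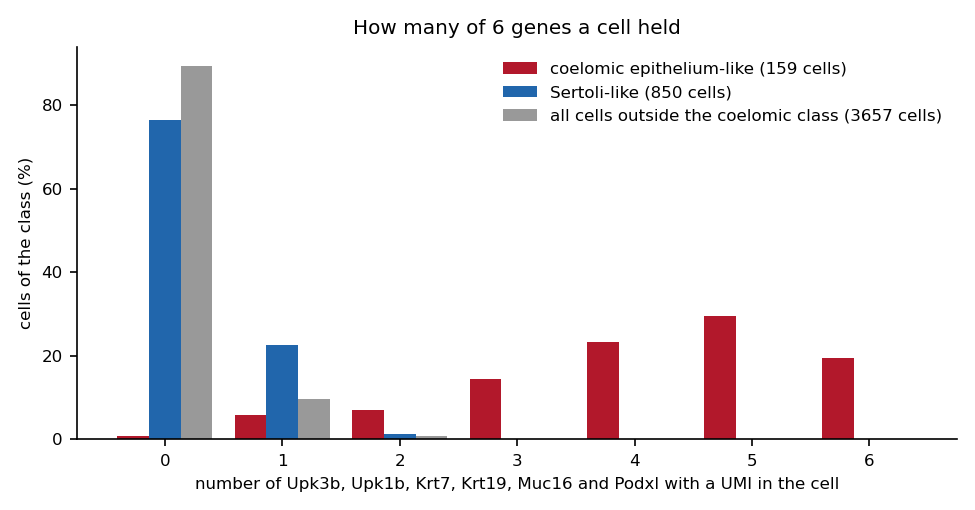
Number of 6 genes with at least 1 UMI in a cell (horizontal axis) against the percentage of cells of the group (vertical axis, from 0), for coelomic epithelium-like cells (red), Sertoli-like cells (blue) and all cells outside the coelomic class (grey). The coelomic cells spread mainly over 3 to 6 genes, and the Sertoli-like cells over 0 and 1.

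Levels were also set side by side by cell cycle phase, called from scores in each cell. In Sertoli-like cells *Krt8* was at 96.8 CPM (89.2 to 105) in G1, 59.4 CPM (51.1 to 68.6) in S and 137 CPM (125 to 149) in G2M, and no 2 of these intervals overlap. *Krt18* had another order and was at 72.3 CPM (65.8 to 79.3) in G1, 63.6 CPM (55.0 to 73.1) in S and 50.6 CPM (43.5 to 58.5) in G2M. *Krt7* was at 18.6 CPM (15.3 to 22.3) in G1 and 5.62 CPM (3.43 to 8.68) in G2M. The median depth of the cells moved with the phase, from 13188 UMIs in G1 to 15558 in S and 18771 in G2M, and its part in these differences was not tested. The intervals leave out the spread between cells, and whether the levels differ between phases was not tested.

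In the coelomic class *Krt7* was at 162 CPM (136 to 192) in the 50 cells called G1, 184 CPM (160 to 210.0) in the 55 called S and 93.2 CPM (75.4 to 114) in the 54 called G2M. Its G2M level was below the intervals of the other phases, as in Sertoli-like cells. Over the 159 coelomic cells the variance of *Krt7* was 3.53 times its mean, which these intervals leave out. Whether *Krt7* differs between phases was not tested. *Krt8* gave 61.0, 43.5 and 44.1 CPM in G1, S and G2M, with overlapping intervals; whether the phases differ between the classes was not tested. *Muc16* was highest in S, at 48.7 CPM (36.8 to 63.2) against 23.2 CPM (14.0 to 36.2) in G1 and 20.6 CPM (12.7 to 31.5) in G2M. Its S interval starts barely above the end of the G1 interval, from 56 and 19 UMIs. Over the 159 cells its variance was 2.29 times its mean, a spread between cells that these intervals leave out. Whether its level differs between phases was not tested. *Upk3b* was at 265 CPM (231 to 303) in G1, 344 CPM (311 to 380) in S and 344 CPM (309 to 382) in G2M. Its variance over the 159 cells was 6.81 times its mean, which these intervals leave out. Whether *Upk3b* differs between phases was not tested. The coelomic cells in G1 were shallower, at a median of 12687 UMIs against 16745 in S and 17427 in G2M.

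**Figure D5:**
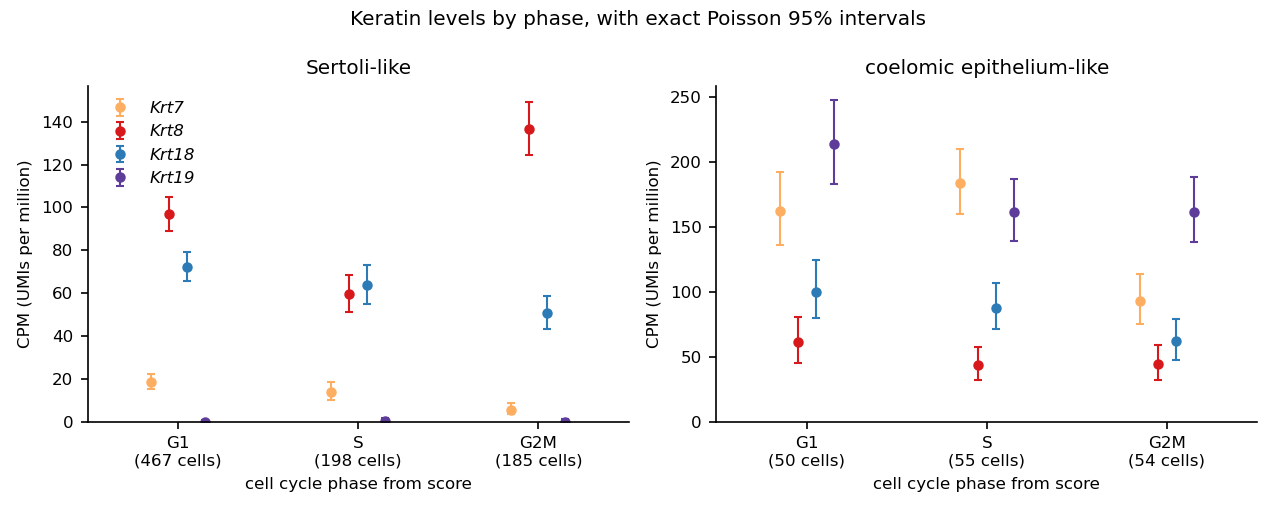
Level of the 4 keratins (vertical axis, CPM, from 0) by cell cycle phase (horizontal axis, with the number of cells) in Sertoli-like cells (left) and coelomic epithelium-like cells (right), with exact Poisson 95% intervals as lines. *Krt8* spans 59.4 to 137 CPM over the phases of Sertoli-like cells, and *Krt7* is lowest in G2M in both classes.

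A finer clustering split the Sertoli-like cells into 2 clusters of 428 and 423 cells, with *Krt8* at 103 and 93.3 CPM and *Krt18* at 56.7 and 74.1 CPM. Of the 518 peritubular myoid-like cells, 350 fell in a cluster of 355 cells that kept the name and 164 in an unnamed cluster of 173 cells led by *Dkk1*. The named cluster had *Krt8* at 5.46 CPM (3.56 to 7.99) and *Krt18* at 5.04 CPM (3.23 to 7.49). In the unnamed one *Krt8* was at 17.99 CPM (12.8 to 24.6), *Krt18* at 25.8 CPM (19.5 to 33.5) and *Podxl* at 11.1 CPM (7.09 to 16.5), each above the interval of the named cluster. Of the unnamed *Ntng1* cluster, 231 cells fell in a cluster of 247 named interstitial-like and 52 in one of 107 named perivascular-like. The cluster of 247 had *Krt8* at 3.79 CPM (1.64 to 7.47), *Krt18* at 4.74 CPM (2.27 to 8.72) and *Podxl* at 0. The finer clustering also set apart 88 cells led by *Rnase12*, *Pax8* and other genes, 74 of them from the unnamed *Ntng1* cluster. This cluster had only 2 of 5 rete testis markers in 25% of its cells or more and was left unnamed. *Podxl* was at 57.9 CPM (41.6 to 78.6) there, *Krt18* at 33.9 CPM (21.7 to 50.4), *Krt8* at 26.8 CPM (16.2 to 41.9), *Krt7* at 21.2 CPM (11.9 to 34.9) and *Upk3b* at 14.1 CPM (6.77 to 26.0). Few of the 88 cells carried these levels: *Podxl*, itself among the leading genes, was seen in 11.4% of them, *Krt8* in 14.8%, *Krt18* in 12.5%, *Krt7* in 5.68% and *Upk3b* in 4.55%. Among the 6 kept cells with both *Pax8* and *Aldh1a3*, which mark the rete testis, *Podxl* was seen in 5, *Krt18* in 4 and *Krt8* in 3. None of the 6 held *Upk3b*, *Upk1b*, *Krt7*, *Krt19*, *Msln* or *Muc16*.

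Most of the wider keratin family was sparse in these cells. An exception was *Krt10*, with 1880 UMIs in the kept cells beside 1574 of *Krt8*. Of the 49 other keratin features, 17 had no UMI in the kept cells and 15 were seen in 10 cells or more. Compared with Sertoli-like cells, 5 of these 15 were at least 2-fold higher in the coelomic class and 1 was lower. Of all genes seen in 10 cells or more, 8.37% and 8.32% were. *Krt14*, a type I keratin of basal epithelial cells, was at 64.6 CPM (55.8 to 74.4) in the coelomic class against 0.0777 CPM in Sertoli-like cells. *Krt10* was at 43.2 CPM against 18.8, *Krt17* at 22.8 against 0.388, *Krt15* at 11.0 against 0 and *Krt36* at 5.02 against 0. The lower one was *Krt79*, at 0.335 CPM from 1 UMI in the coelomic class and 16.5 CPM (14.4 to 18.9) in Sertoli-like cells. *Krt17* was highest in germ-like cells (47.2 CPM), as were *Krt42* (22.6 CPM) and *Krt222* (26.2 CPM). *Krt10* was highest in the unnamed *Ntng1* cluster (57.6 CPM). *Krt15*, *Krt36*, *Krt42* and *Krt79* are named after their values were seen.

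Of 10 further genes used as marks of mesothelium, 8 were seen in 10 cells or more. In the coelomic class 5 of the 10 were at least 2-fold higher than in all other cells. Against Sertoli-like cells 3 were higher, and none was lower in either comparison. Of all genes tested, 3.16% and 8.37% were higher, and the median log2 ratio of the 10 genes was 0.87 and 0.26. *Wt1*, a transcription factor of the urogenital ridge, was at 349 CPM (328 to 370.4) beside 272 CPM in Sertoli-like cells, and *Crb2*, an apical polarity protein, was at 39.1 CPM (32.4 to 46.9) beside 0.388 CPM. *Pdpn* was at 75.6 and 66.9 CPM. *Cldn15* was at 14.4 CPM beside 0.0777 CPM, but its highest level was in immune-like cells (45.3 CPM). *C3* and *Slpi* were also highest in immune-like cells, at 79.8 and 58.0 CPM, and were at 0.335 and 0 CPM in the coelomic class. *Calb2* was at 2.34 CPM in the coelomic class beside 3.88 CPM in Sertoli-like cells. *C3*, *Slpi* and *Calb2* are named after their values were seen. Of 5 linkers between membrane and actin, some of which bind the tail of podocalyxin, 3 were higher than in Sertoli-like cells (8.37% of all genes). Their median log2 ratio was 1.46. Against all other cells 2 of the 5 were higher (3.16% of all genes), and none was lower in either comparison. *Ezr* was at 149 CPM (136 to 164) beside 51.0 CPM, *Slc9a3r1* at 77.3 CPM (67.6 to 87.9) beside 8.62 CPM and *Slc9a3r2* at 84.3 CPM (74.2 to 95.4) beside 13.6 CPM. *Slc9a3r1* was highest in germ-like cells (102 CPM) and *Slc9a3r2* in endothelial-like cells (292 CPM). *Rdx* was at 268 CPM beside 454 CPM.

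Of 11 desmosome and plakin genes, whose proteins anchor intermediate filaments, 9 were seen in 10 cells or more. In the coelomic class 3 were at least 2-fold lower and 1 higher than in Sertoli-like cells, beside 8.32% and 8.37% of all genes. The median log2 ratio of the 11 genes was −0.54. *Dsp*, which codes for desmoplakin, was at 17.1 CPM (12.7 to 22.4) beside 114 CPM (108 to 120) and *Plec* at 40.1 CPM (33.3 to 48.0) beside 126 CPM (120 to 133). *Jup* was at 28.4 beside 57.1 CPM and *Pkp4* at 19.7 beside 25.2 CPM. The third lower gene was *Pkp2*, at 2.68 beside 10.7 CPM, and the higher one was *Evpl*, at 8.70 beside 0.622 CPM, both named after their values were seen. Of 6 other intermediate filament genes, *Des* (22.4 beside 0.155 CPM) and *Lmna* (91.7 beside 22.6 CPM) were higher and *Synm* (3.68 beside 62.4 CPM, named after its values were seen) was lower. *Vim* was at 814 beside 1389 CPM and *Lmnb1* at 279 beside 167 CPM. Among 5 further mucins and relatives of podocalyxin, *Podxl2* was higher (55.5 beside 5.28 CPM) and *Cd164* lower (67.6 beside 230 CPM). *Cd34*, at 736 CPM in endothelial-like cells, was at 0.669 CPM in the coelomic class.

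For each of the 9 genes, the genes with the most alike levels over the 14 clusters were sought among 10021 genes with at least 20 CPM in 1 cluster or more. Correlations are of log2 levels with 5 CPM added, and all points come from 1 library. For genes found almost solely in the coelomic cluster, that 1 cluster of 14 sets the correlation, so any other such gene gives a value near 1. *Upk3b* was most like *Upk1b* (r = 0.996), *Muc16* (0.992) and *Crb2* (0.991). *Upk1b* was most like *Muc16* (0.997), and *Muc16* most like *Krt14* (0.999). *Krt19* was most like *Upk3b* (0.987), *Tm4sf5* (0.986) and *Myl7* (0.983). For *Msln*, which has 15 UMIs, nothing is read from the likeness. For *Krt7* the nearest genes were *Fgf9* (0.943) and *Zfp185* (0.917), and *Fgf9* was at 64.2 CPM in the coelomic class and 13.8 CPM in Sertoli-like cells. *Krt8* was most like *Mpzl2* (0.972), *Dpysl5* (0.966) and *Lsr* (0.951), which were all higher in Sertoli-like than in coelomic cells, and *Krt18* was most like *Krt8* (0.931) and *Cxadr* (0.930). *Podxl* was most like *Parvb* (0.929), *Kcna5* (0.927) and *Lama5* (0.926), of which *Parvb* was at 46.2 CPM in the coelomic class and 51.7 CPM in endothelial-like cells.

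Barcodes outside the kept cells held part of the counts. In the 372 barcodes with fewer than 200 genes only 1 UMI of *Krt18* and 1 of *Podxl* were found. The 1233 barcodes removed as doublets or outliers held from 17.7% (*Upk3b*) to 34.8% (*Msln*, 8 of 23) of the UMIs of each gene. Over all genes, kept cells held 54572533 of the 72595083 UMIs in the matrix. In the removed barcodes *Upk3b* was at 13.1 CPM beside 18.5 CPM in kept cells, and *Msln* at 0.482 beside 0.275 CPM. Of the removed barcodes 17 held 3 or more of the 6 genes counted per cell, beside 149 kept cells.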

How the data were processed

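The authors deposited unnormalized UMI counts for every gene in each barcode. They had aligned the reads to mm10, extended by a YFP sequence, with Cell Ranger. The matrix header names version 3.1.0, the submitters' processing notes also list 3.0.2, and the methods name another version. The library was made from polyadenylated RNA with a 10x Genomics Chromium kit that reads the 3′ ends.

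Barcodes with fewer than 200 genes were left out. A doublet score, the proportion of simulated doublets (25% of the merged data) in a cell's neighbourhood (2% of it), was used to remove the top 4.04%. Outliers at 3 median absolute deviations were then dropped, judged by UMIs and genes on a log scale, by the ribosomal-protein share and by a high mitochondrial share, which left 3816 cells with 2260 to 53807 UMIs each, and 54572533 UMIs of the 72595083 in the matrix. Clustering used Seurat 5.3.0 and sctransform 0.4.2 in R 4.3.3, with 3000 variable genes less 29 listed genes (8 of the 9 members among them), 30 components and resolution 0.8. All further work was done in Python 3.11.15 (scipy 1.17.1, numpy 2.4.6, scikit-learn 1.9.0, pandas 2.3.3).

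A cluster took the class whose markers had the highest mean log2 ratio against all other cells (5 CPM added), if this was at least 1 and at least 3 markers were in 25% of its cells or more. A cluster with more markers of another class among its 10 leading genes stayed unnamed. The 9 genes, the gene lists and the markers were chosen with earlier results of these data known. Of each list, up to 4 genes with 20 CPM or more in any class are named, those highest in the coelomic class first, and for each of the 9 genes up to 3 genes most alike. Other names are said to be so in the text.

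Ratios carry exact conditional binomial 95% intervals. A call is a ratio of 2 or more with 5 CPM added, with no p-value. A fold against a class at 0 is set against 3 UMIs over that class. PCR copies are collapsed by the molecular index, and intervals leave out all variation between animals. The ratio calls with their intervals, the naming of clusters and the thinning were tested on simulated data, and the other steps were not. Cells for the naming were drawn from the mean profiles of the same clusters, and counts for the ratios were Poisson. These tests check the procedure only. They cannot show that the names are right or that the intervals cover the spread between real cells. Outlier and doublet limits, resolutions, normalization, the genes used for clustering, class assignment, the added CPM and thinned depths were varied.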

Additional observations from a re-analysis of the deposited data

How the results depend on the processing

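With 12 alternatives for the comparison with Sertoli-like cells, no ratio of the 9 genes changed sign. *Upk3b*, *Upk1b*, *Krt7*, *Krt19*, *Muc16* and *Podxl* stayed at least 2-fold higher under each of them, and *Krt18* was never called (log2 ratio from 0.12 to 0.57). *Krt8*, close to the limit, was called lower under 2 of the 12 (−1.21 to −0.63), and *Msln* was called higher with 1 CPM added. The coelomic epithelium-like class held 243 cells instead of 159 with class markers applied to single cells in place of clusters. The median log2 ratio of the 9 genes was then 2.72 instead of 3.01, while it was 3.81 with 1 CPM added and 3.48 with cells thinned to 3000 UMIs. Of the 108 alternative values for the ratios of single genes, 92 moved by less than the limits set for them and 16 by more. No paired analysis was possible because there was 1 library, with no second sample to pair it with. For *Msln*, with 9 UMIs in the coelomic class, depth limits any comparison. The intervals cover counting error only, and differences between animals could not be measured.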
